A study of Saccharomyces cerevisiae with 4 samples.

Results

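The 9 genes described here encode enzymes of ergosterol synthesis in Saccharomyces cerevisiae, and they were taken by their systematic names. In order of pathway step they are HMG1 (YML075C), HMG2 (YLR450W), ERG1 (YGR175C), ERG11 (YHR007C), ERG25 (YGR060W), ERG6 (YML008C), ERG2 (YMR202W), ERG3 (YLR056W) and ERG5 (YMR015C). They are 9 of the 6172 genes and unmatched features of the series, of which 457 had no value on any array. Each of the 9 had a value on all 4 arrays. Ergosterol is the main sterol of the yeast plasma membrane, as cholesterol is in animal cells. Its synthesis starts from acetyl-CoA and runs through mevalonate and squalene to lanosterol, the earliest sterol, which is then trimmed, methylated and desaturated. Several of the late steps consume oxygen, some enzymes carry heme, and the zinc cluster factors Upc2 and Ecm22 are known to raise the pathway's genes when sterol runs low.

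All RNA came from an rlm1 mutant. Rlm1 is the transcription factor through which the kinases of the cell wall integrity pathway act on wall genes. The strain background is not given in the sources used here. Cultures grew in YEPD, a rich medium, at 24 °C and were split. One part received Zymolyase 100T, an enzyme preparation that digests wall glucan, at 5 units per ml and was collected at 3 hours; the other part received none. Each of the 4 two-colour arrays set both parts of one culture against each other. The rlm1 mutation was thus shared by both sides of every ratio, no strain with RLM1 was analysed here, and RLM1 itself had no value on any array.

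There were 2 cultures with 2 arrays each, the dyes exchanged. On arrays 1 and 3 Cy3 marked the zymolyase-treated side, and on arrays 2 and 4 it was Cy5 that did so. Values below are log2 ratios of zymolyase over untreated, where 0 is no difference; the log base is not stated and was taken as 2, so every fold depends on it. The deposited ratio was read as Cy3 over Cy5, and arrays 2 and 4 were multiplied by -1. HSP12, a stress protein gene, shows the basis, with deposited ratios of 3.22, -3.09, 2.52 and -2.17 on arrays 1 to 4: its sign changed with the dyes, and the reading puts this gene on the zymolyase side. The turning and the direction are therefore likely rather than settled, and with the opposite numerator every sign below turns. Arrays 1, 3 and 4 had SDs over features of 0.32 to 0.35, while array 2 had 0.63 and 1394 features without a value.

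None of the 9 ergosterol genes passed the test with zymolyase. Their mean log2 ratios lay between -0.10 (ERG5) and 0.09 (HMG2), or 0.932-fold to 1.07-fold, with 5 positive and 4 negative. Their median was 0.03, beside -0.01 over all 4730 genes tested. The test was limma on the culture means, with Benjamini-Hochberg adjustment over all 4730 genes, and a gene counted as called when its adjusted p was under 0.05 in both possible pairings of arrays into cultures. Adjusted p was between 0.92 and 0.99 for these genes. At an unadjusted p under 0.05, 0 of the 9 passed, against 12.5% of all genes. The limma fits of 4 separate arrays, with and without a dye term, called 0 of the 9 as well. Of all 4730 genes they called 77 with the dye term and 17 without it. With the dye term 0 of the 9 had an unadjusted p under 0.05, against 570 of all 4730 genes. In the fit on culture means, 3.15% of all genes tested were called, 2.35% higher and 0.803% lower. A list of 9 with no call is therefore near the background.

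The precision sets what could have been seen. All genes shared a standard error of 0.16, and the smallest mean that was called had a size of 0.51. The 95% intervals of the 9 means reached from -0.42 (ERG5) to 0.41 (HMG2), which is 0.748-fold to 1.33-fold. For each of the 9 genes, both ends of the interval were smaller in size than 0.51. No mean below that size was called in this fit. The interval uses limma's one standard error for all genes and takes no account of a gene that varies more than others. The 9 means had an SD of 0.08 among themselves, and that of all genes tested was 0.24. A mean no larger in size than that of ERG5 was found in 2017 of the 4730 genes, or 42.6%. By size of mean, ERG5 ranked 2714 and ERG2 ranked 4545 of 4730. RNA came from whole cultures, so a change in some cells and a smaller change in every cell cannot be told apart.

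**Figure D1:**
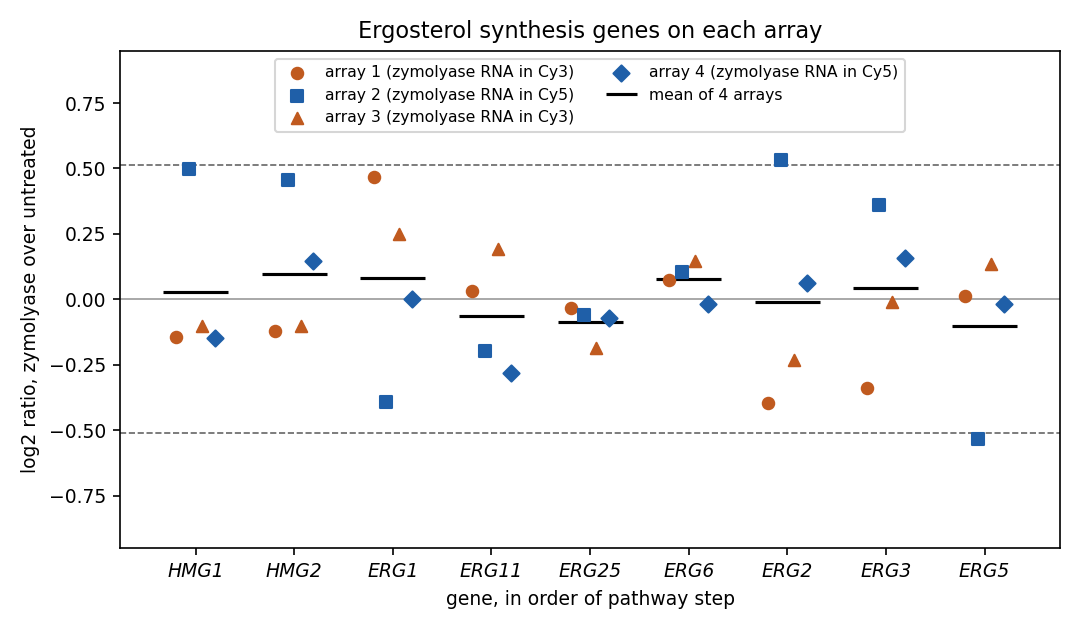
Log2 ratio of zymolyase over untreated for the 9 ergosterol synthesis genes in order of pathway step; points are arrays 1 to 4, coloured by the dye of the zymolyase RNA, black bars are means of the 4 arrays and dashed lines mark 0.51, the smallest mean called. All 9 means lie between -0.10 and 0.09, and single values range from -0.54 to 0.53.

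HMG1 and HMG2 encode the paired HMG-CoA reductases, which make mevalonate and set the pace of the pathway; Hmg2 is the form that is degraded when sterol intermediates build up. HMG1 had log2 ratios of -0.14, 0.50, -0.10 and -0.15 on arrays 1 to 4, with a mean of 0.03 ± 0.31 (SD, n = 4 arrays; limma adjusted p = 0.98). Array 2 alone was positive, and without it the mean of the other 3 was -0.13. Here and below, a mean without 1 array is the plain mean of the other 3. It holds 2 arrays of one dye orientation and 1 of the other, so a dye effect does not cancel in it. HMG2 had -0.12, 0.45, -0.10 and 0.15, with a mean of 0.09 ± 0.27 (limma adjusted p = 0.94). Both arrays with zymolyase RNA in Cy3 were negative and both with it in Cy5 positive, and without array 2 the mean was -0.02. The pair differed little on arrays 1 to 3, where HMG1 minus HMG2 was -0.02, 0.04 and 0.00. On array 4 the difference was -0.29, and over the 4 arrays it was -0.07 ± 0.15 (SD, n = 4). These genes are related in sequence, and their values are uncertain where a spot binds cDNA of both.

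ERG1 encodes squalene epoxidase, the enzyme that adds oxygen to squalene and the target of terbinafine. Its log2 ratios were 0.47, -0.39, 0.25 and 0.00 on arrays 1 to 4, with a mean of 0.08 ± 0.37 (limma adjusted p = 0.95). The arrays with zymolyase RNA in Cy3 averaged 0.36 and those with it in Cy5 averaged -0.20, and without array 1 the mean turned to -0.05. ERG11 encodes the cytochrome P450 that removes a methyl group from lanosterol, the target of azole drugs. It had 0.03, -0.20, 0.19 and -0.28, with a mean of -0.06 ± 0.22 (limma adjusted p = 0.97). Again the Cy3 arrays were positive and the Cy5 arrays negative, and the mean without array 4 was 0.01.

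ERG25 encodes the methyl oxidase of the following demethylation steps. Its log2 ratios were -0.03, -0.06, -0.18 and -0.07, with a mean of -0.09 ± 0.07 (limma adjusted p = 0.94), which is 0.941-fold. It was the only one of the 9 with the same sign on all 4 arrays, which 16.8% of all genes tested had, and its arrays spanned 0.15, the narrowest range of the 9. ERG6 encodes the methyltransferase that adds the side-chain methyl group, a feature by which ergosterol differs from animal sterols. It had 0.07, 0.10, 0.15 and -0.02, with a mean of 0.08 ± 0.07 (limma adjusted p = 0.95). Array 4 was the exception to a positive sign. ERG25 and ERG6 kept the sign of their means whichever array was left out.

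The last 3 genes act on the double bonds of the ring and the side chain. ERG2 encodes the isomerase that moves a ring double bond, the target of morpholine fungicides, and had log2 ratios of -0.40, 0.53, -0.23 and 0.06. Its mean was -0.01 ± 0.41 (limma adjusted p = 0.99), the mean of smallest size and the widest spread of the 9. Means without array 1 and without array 3 were 0.12 and 0.07, and without array 2 the mean was -0.19. ERG3 encodes the desaturase after it, whose loss is known to give azole tolerance, and had -0.34, 0.36, -0.01 and 0.16. The mean of ERG3 was 0.04 ± 0.29 (limma adjusted p = 0.98), and -0.06 without array 2. ERG5, the cytochrome P450 that desaturates the side chain, had 0.01, -0.54, 0.13 and -0.02. Its mean of -0.10 ± 0.30 (limma adjusted p = 0.92) was carried by array 2, and the mean of the other 3 arrays was 0.04.

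The sign of most of the 9 genes changed between the dye orientations. In 7 of the 9, the mean over the Cy3 arrays and the mean over the Cy5 arrays had opposite signs, and the same was true of 58.9% of all genes tested; the exceptions were ERG25 and ERG6. Before turning, the deposited ratios of arrays 1 and 3 had the same sign in 9 of 9 genes, against 70.6% of all genes. Arrays 2 and 4 shared it in 6 of 9, against 62.5%. Across opposite orientations, the unturned sign was shared by 6 or 7 of the 9 genes in every pair of arrays, against 53.9% to 58.2% of all genes. The share of the dyes, of the arrays and of the cultures in these values was not tested.

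Averaged without turning, the deposited ratios were -0.31 for ERG2, -0.22 for ERG3, -0.21 for HMG2, -0.15 for HMG1 and -0.02 for ERG25. They were 0.28 for ERG1, 0.18 for ERG11, 0.17 for ERG5 and 0.03 for ERG6. In this mean a treatment effect of equal size cancels and an equal dye effect remains, unless the deposited ratios had already been turned, in which case it is the treatment mean. The limma test of the unturned mean called 6.68% of all genes and 0 of the 9 (lowest adjusted p = 0.26, for ERG2), and at an unadjusted p under 0.05 also 0 of the 9, against 21.1% of all genes. The count of ergosterol genes past the test was therefore 0 with and without turning.

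**Figure D2:**
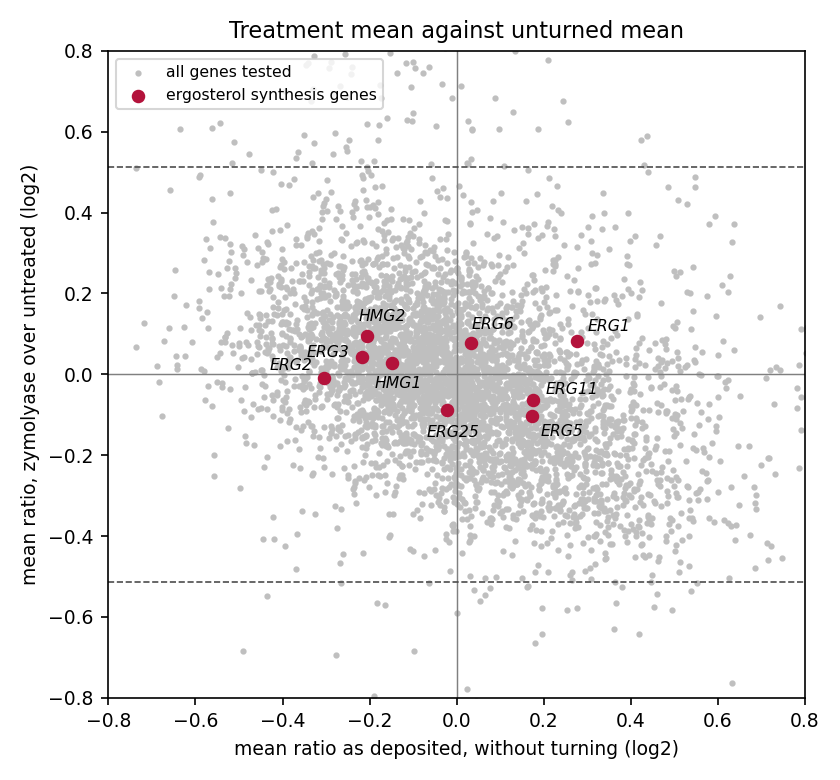
Mean log2 ratio of zymolyase over untreated against the mean of the deposited ratios without turning; grey points are genes tested, red points the 9 ergosterol synthesis genes, and dashed lines mark 0.51. The axes end at 0.8, which leaves 67 of 4730 genes outside; the 9 genes spread from -0.31 to 0.28 along the unturned mean and from -0.10 to 0.09 along the treatment mean.

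Of the 9 enzymes, 5 use oxygen (Erg1, Erg11, Erg25, Erg3 and Erg5) and 4 do not. The median of the mean log2 ratios was -0.06 in the oxygen-using group and 0.05 in the other. The groups overlapped, with means from -0.10 to 0.08 and from -0.01 to 0.09. On arrays 1 to 4 the median of the oxygen-using group was 0.01, -0.20, 0.13 and -0.02. That of the other group was -0.13, 0.48, -0.10 and 0.02. By these medians the oxygen-using group was higher than the other with zymolyase RNA in Cy3 and lower with it in Cy5. On array 4 the medians were close. Of the oxygen-using genes, ERG1, ERG11 and ERG5 had a positive Cy3 mean and a negative Cy5 mean. ERG3 went the other way (-0.17 and 0.26), and ERG25 was negative in both (-0.11 and -0.07). In the other group ERG6 was positive in both (0.11 and 0.04). The cause was not tested.

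The other steps of the pathway had no call either. Of 15 further genes, from ERG10 to ERG4 and with the P450 reductase gene NCP1, 14 had values on all 4 arrays; ERG24 had none and was not tested. All 14 failed the limma test, 8 with a positive and 6 with a negative mean (median 0.03). At an unadjusted p under 0.05 there were 2, or 14.3%, against 12.5% of all genes tested. ERG10, the acetyl-CoA thiolase gene of the opening step, had the largest mean. Its log2 ratios were 0.72, -0.10, 0.56 and 0.14 on arrays 1 to 4, a mean of 0.33 ± 0.38 (limma adjusted p = 0.37), which is 1.26-fold. IDI1, the isopentenyl diphosphate isomerase gene, stood opposite at -0.70, 0.02, -0.51 and -0.11, a mean of -0.33 ± 0.34 (limma adjusted p = 0.38). In both, the arrays with zymolyase RNA in Cy3 held the large values. Members and other steps together gave 23 genes tested, none called and a median of 0.03.

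Regulators of the pathway and genes for the turnover and cofactors of its enzymes were a list of 19. Of these, 13 were tested and none was called. An unadjusted p under 0.05 was found for 3 of the 13, or 23.1%, against 12.5% of all genes tested. Their median was 0.09, with 8 positive and 5 negative means. HEM13, the heme synthesis gene for coproporphyrinogen oxidase, had log2 ratios of -0.78, -0.49, -0.34 and -0.01, with a mean of -0.40 ± 0.32 (limma adjusted p = 0.21). All 4 of its values were negative. HAP1, which encodes a heme-responsive activator of ERG genes, had 0.70, 0.42, 0.78 and -0.30, with a mean of 0.40 ± 0.49 (limma adjusted p = 0.21). UPC2 and ECM22 lacked a value on 1 array each and were not tested. UPC2 had -0.42, 0.43 and -0.57 on arrays 1, 2 and 3, and ECM22 had 0.15, 0.44 and -0.15 on arrays 1, 3 and 4. Neither had 1 sign on the arrays measured.

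Sterol esters, sterol uptake and sterol transport between membranes were covered by 23 genes, of which 17 were tested and none was called. At an unadjusted p under 0.05 there were 2, or 11.8%, against 12.5% of all genes tested. Their median was 0.01. LAM4, which encodes a sterol transfer protein of membrane contact sites, had the largest mean of all the sterol genes tested here. Its log2 ratios were 0.39, 0.44, 0.52 and 0.28, a mean of 0.41 ± 0.10 (limma adjusted p = 0.20), which is 1.33-fold. All 4 arrays were positive and close to each other, yet the mean was below the size of the smallest call. ARE1, a sterol acyltransferase gene that stores sterol as ester, had -0.83, -0.10, -0.71 and 0.25, a mean of -0.35 ± 0.51 (limma adjusted p = 0.32). Only array 4 was positive.

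**Figure D3:**
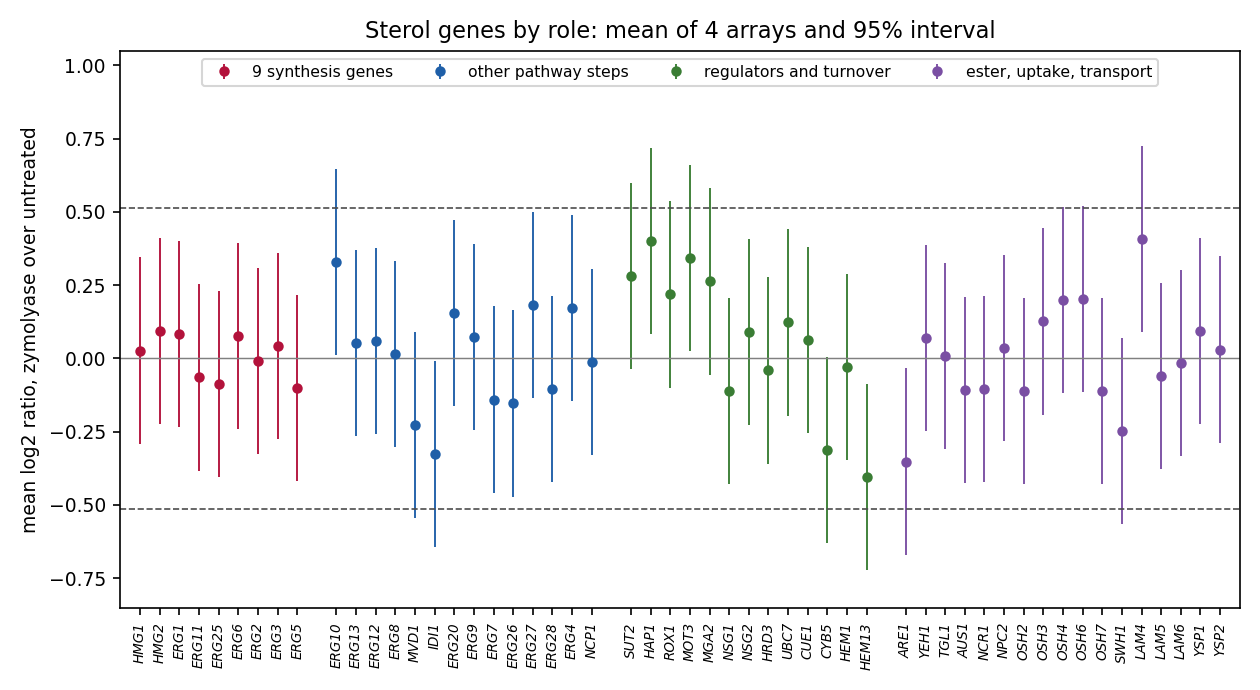
Mean log2 ratio of zymolyase over untreated with limma's 95% interval for each sterol gene tested, grouped by role; dashed lines mark 0.51, the smallest mean called. No mean reaches the dashed lines, and the 9 synthesis genes lie between -0.10 and 0.09.

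ERG5 had the mean of largest size of the 9, a negative one. By distance over the 4 log2 ratios, the genes most like ERG5 were MAD2 (distance 0.056), RAD57 (0.071) and RAD52 (0.073). They had values near 0 on arrays 1 and 4 and between -0.50 and -0.49 on array 2, where ERG5 had -0.54. None of them was called (limma adjusted p = 0.94, 0.96 and 0.95).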

How the data were processed

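The authors' deposited table holds 1 log ratio per feature and array, taken here as log2; per the labels' protocols, total RNA was reverse transcribed with Cy3- or Cy5-labelled nucleotide. The sources used here give no scanner, background correction, normalization, blanking rule, log base or numerator. Array medians lay between -0.07 and 0.02, so values were used as deposited. No intensities were analysed, so the number of arrays limits the precision.

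Of 6209 features, 2 controls were left out, and 5711 matched a gene of the R64 gene table (names only); 496 kept their own name, and features of 1 gene were averaged. The 2 arrays of a culture were averaged, in both possible pairings, and tested against 0 with limma 3.58.1 (R 4.3.3). The larger adjusted p and the wider 95% interval are given. Limma's prior was infinite, hence the shared standard error. P-values set a gene's mean against the spread between 2 culture means pooled over all genes, not against that gene's own spread. SDs are over 4 arrays. The fit was tested on simulated data with known changes. Those data had equal noise on every array and no culture effect, so the wider spread of array 2 was not covered.

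All 9 genes are named. Of the other sterol lists, the text names any gene past the test and the 2 means of largest size per list. It also names the 3 genes nearest to the member whose mean was largest in size. UPC2, ECM22, MOT3, ROX1 and CYB5 were named outside this rule, with their values known. Members, lists and tests were chosen with earlier results of these data known. Alternatives were median centring, scaling to one spread, fits of 4 separate arrays with and without a dye term, no turning, genes measured on part of the arrays, and leaving out each array.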

Additional observations from a re-analysis of the deposited data

Results flagged for a closer look

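HMG1 was marked because 1 array lay far from the others: array 2, at a log2 ratio of 0.498, was apart from the nearest other array by 0.931 of the gene's whole range. Chance marks about 1 in 20 such groups of 4 where the values have equal spread, which these arrays did not have. In all, 15 genes were examined. Array 2 also had the widest ratios over all features. It held the value of largest size, whatever its sign, in 5 of the 9 ergosterol genes, against 62.1% of all genes tested.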

How the results depend on the processing

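No alternative called any of the 9 ergosterol genes (lowest adjusted p = 0.26, with the ratios taken as already turned) or any gene of the other 3 sterol lists. The median of the 9 stayed between -0.03 and 0.08. The mean turned sign under scaling to one spread for HMG1 (-0.058) and ERG3 (-0.016), and under no turning for HMG1 (-0.149), HMG2 (-0.206), ERG3 (-0.216), ERG11 (0.176) and ERG5 (0.174). With 1 array left out, means ranged from -0.130 to 0.084 for HMG1, -0.025 to 0.167 for HMG2, -0.046 to 0.240 for ERG1, -0.150 to 0.008 for ERG11, -0.189 to 0.120 for ERG2, -0.063 to 0.169 for ERG3 and -0.181 to 0.043 for ERG5. In these plain means of 3 arrays the dyes are out of balance. The array removed and the lost dye balance therefore cannot be told apart in them. Over all genes, 149 calls (111 higher, 38 lower) became 97 with centring (83 and 14), 98 with scaling (86 and 12), 77 with a dye term (68 and 9), 17 without one (17 and 0), 316 without turning (215 and 101), 85 with genes on part of the arrays, fitted with a dye term (75 and 10), and 9 to 35 with an array left out (9 to 33 and 0 to 3). The cause was not tested. With an array left out, the test let the remaining array of that culture stand for the culture. It thus weighted that array more than the plain means of 3 arrays above, which also gave the direction of these calls. The 4 arrays counted as separate samples hold 2 cultures. Signal over background is unknown. Each ratio compares both parts of one culture, so the test was already paired by culture.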

Other observations

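Of the 13 regulator and turnover genes tested, 4 had 1 sign on all 4 arrays, as did 16.8% of all genes tested. Besides HEM13 they were MOT3 and ROX1, which encode repressors of hypoxic and sterol genes, and CYB5; these 3 were singled out after their values were seen. MOT3 had log2 ratios of 0.26, 0.63, 0.23 and 0.26 on arrays 1 to 4 (mean 0.34 ± 0.19, limma adjusted p = 0.34), and ROX1 had 0.07, 0.44, 0.06 and 0.30 (mean 0.22 ± 0.19, limma adjusted p = 0.66). CYB5, which encodes the cytochrome that passes electrons to sterol desaturation, had -0.18, -0.65, -0.15 and -0.27 (mean -0.31 ± 0.23, limma adjusted p = 0.41). None of the 3 passed the test.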
